A study of Mus musculus with 17 samples.

Results

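The genes described here are 9 mouse genes that carry, store, make, bind and sense retinoids: Rbp4, Lrat, Stra6, Aldh1a1, Aldh1a2, Aldh1a3, Crabp1, Crabp2 and Rarb. They were taken by gene name from one-colour expression arrays and are 9 of the 31693 gene names on the array, read by 10 of its 39429 probes, Rarb by 2 probes and each other gene by 1. All 10 probes passed the filter on dim probes, which asked for a signal well above background on at least 2 of the 17 arrays. The genes were chosen with their levels in the 5 groups already known, so their levels and differences are given as descriptions with no test.

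All samples came from offspring of Foxl1-CRE mice crossed with a Rosa26R fluorescent reporter (strain label Foxl1-CRE; RosaYFP), 6 to 10 weeks old, so the primary cells carried the same alleles as the cultured ones. The 5 groups were undifferentiated adult hepatic progenitors (4 arrays), progenitors placed in a hepatocyte differentiation condition in vitro (4 arrays), progenitors placed in a cholangiocyte condition (3 arrays), primary hepatocytes (4 arrays) and primary cholangiocytes (2 arrays, numbered 3 and 4). In this line the Foxl1 promoter drives Cre, and the reporter marks the cells in which Cre was active. The labels give no culture medium, time in culture, clone or animal number, so replicates may be technical, and any p-value below measures only the spread between these samples. The stated comparison was of cells differentiated in vitro with primary cells.

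Vitamin A reaches the liver as retinol and retinyl ester. Hepatocytes secrete retinol into blood bound to retinol binding protein 4 (RBP4), which travels with transthyretin, while hepatic stellate cells store retinyl ester made by lecithin retinol acyltransferase (LRAT). STRA6 is the cell surface receptor for RBP4 in several tissues outside the liver. Retinol is oxidised to retinaldehyde by retinol and alcohol dehydrogenases, and retinaldehyde to retinoic acid by the ALDH1A enzymes. CRABP1 and CRABP2 bind retinoic acid in the cytoplasm, CYP26 enzymes break it down, and the receptors RARA, RARB and RARG, paired with RXR partners, switch genes on or off. Rarb is a classic target of its own ligand, through paired hexamers 5 bases apart in its promoter.

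The promoter sequences of Rarb and of Cyp26a1, a textbook retinoic acid target that encodes a retinoic acid hydroxylase, are shown because both hold such a pair. RefSeq promoter windows (build GRCm38.p6) were found for 7 of the 9 genes, in 12 windows, and not for Aldh1a3 and Crabp2. Each window, 250 bases before to 50 after a start site, was searched on both strands for direct repeats of the hexamer AGGTCA, its form AGTTCA, its form GGGTCA or its form GGTTCA, in any pairing, spaced by 5, 2 or 1 bases. The 250 bases before the start are printed 5′ to 3′ along the gene, with the hexamers in capitals. Rarb lies at chr14:16575477-16575726 on the minus strand, and Cyp26a1 at chr19:37697558-37697807 on the plus strand.
Rarb: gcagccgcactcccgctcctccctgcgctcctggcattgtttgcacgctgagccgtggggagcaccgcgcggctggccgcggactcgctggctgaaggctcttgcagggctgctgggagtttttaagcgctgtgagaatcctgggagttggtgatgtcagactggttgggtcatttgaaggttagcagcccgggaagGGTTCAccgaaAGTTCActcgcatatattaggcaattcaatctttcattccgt
Cyp26a1: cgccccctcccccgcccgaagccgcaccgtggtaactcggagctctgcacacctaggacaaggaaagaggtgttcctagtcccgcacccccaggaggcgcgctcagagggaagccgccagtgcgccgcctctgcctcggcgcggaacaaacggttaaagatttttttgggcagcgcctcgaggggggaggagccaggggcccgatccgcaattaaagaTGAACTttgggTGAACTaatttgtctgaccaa
In Rarb the repeat with a 5-base spacer spans positions -53 to -37 from the start and reads along the gene. In Cyp26a1 it spans -32 to -16 and reads on the opposite strand. Rarb was the 1 gene of the 7 with a match of any spacing, and its window held no second match that overlapped the first. The same search was run on 48 other pathway genes described below, of which 36 had a window (51 windows). A match was found in 2 of these, Cyp26a1 and Bco1, the latter with a 1-base spacing at -56 to -44. The 5-base spacing was found in 32 of 32851 windows (0.0974%), the 2-base spacing in 88 (0.268%) and the 1-base spacing in 73 (0.222%). A match describes letters in this window and shows no binding.

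Every level below is log2 of the array's processed Cy3 intensity minus log2 of that array's 75th percentile, so 0 is the 75th percentile of the array. Levels of different genes are not compared, since probes differ in brightness. The 75th percentile lay between 547 and 2867 intensity units over the arrays, lowest in primary hepatocytes (mean 804, n = 4), where a dim probe is therefore read less precisely, and 23814 to 29151 probes per array were well above background. Primary hepatocytes read all 10 hepatocyte markers above background on every array, and primary cholangiocytes read all 10 cholangiocyte markers. Detection alone did not separate them. Primary cholangiocytes read 10 and 7 of the hepatocyte markers on arrays 3 and 4, and primary hepatocytes 5 to 7 of the cholangiocyte markers. Cftr (-1.47 against -3.11), Sctr (-2.81 against -3.53) and Aqp1 (1.69 against -1.53) had higher means in primary hepatocytes than in primary cholangiocytes, the other cholangiocyte markers lower. Albumin (Alb) ranged from -4.76 to 7.62 among the 4 arrays of the hepatocyte condition, and the surface marker Epcam lay between -7.27 and -6.24 in the cholangiocyte condition against 2.22 and 3.05 in primary cholangiocytes. These are bulk RNA samples, in which fewer cells of a type and less RNA per cell cannot be told apart.

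**Figure D1:**
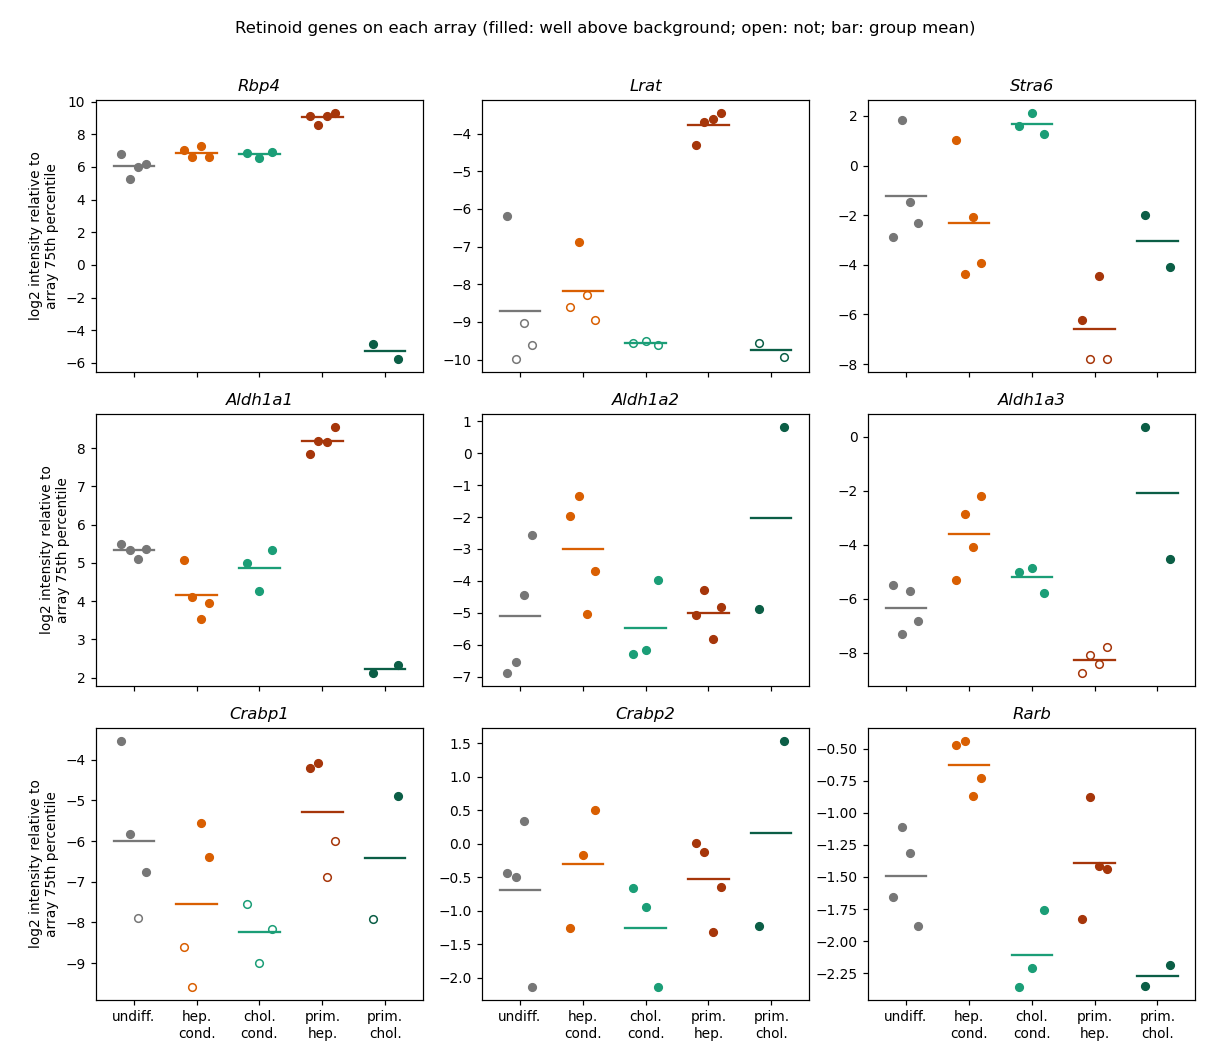
Level of each of the 9 genes on each array (log2 intensity relative to the array's 75th percentile, vertical axis, a scale of its own per panel) in the 5 groups, with the group mean as a bar and open symbols for spots not well above background. Rbp4 lies between 5.23 and 7.26 on all 11 arrays of cultured cells, and Lrat is above background on all 4 arrays of primary hepatocytes.

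Rbp4, the blood carrier of retinol, was high on every array of cultured progenitor-derived cells and of primary hepatocytes and low in primary cholangiocytes. Its level was 6.79, 5.23, 6.01 and 6.16 in undifferentiated progenitors, 7.05, 6.58, 7.26 and 6.59 in the hepatocyte condition and 6.88, 6.54 and 6.92 in the cholangiocyte condition. Primary hepatocytes read 9.15, 8.56, 9.11 and 9.33, and primary cholangiocytes -4.81 and -5.78. The 3 cultured groups overlapped each other, all lay below primary hepatocytes, and all lay far above primary cholangiocytes.
The hepatocyte condition was 4.48-fold below primary hepatocytes (log2 difference -2.16 ± 0.31, SE of the limma fit, 4 against 4 arrays), a gap of -1.06 under quantile normalization. The cholangiocyte condition was 12.08 ± 0.40 above primary cholangiocytes on the log2 scale (3 against 2 arrays), or 10.83 with normexp background correction. The hepatocyte and cholangiocyte conditions differed by 0.09 ± 0.34, and each was above the undifferentiated cells by less than 1 log2 unit (0.82 ± 0.31 and 0.73 ± 0.34), with overlap.

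Of 4 hepatocyte transcripts set beside Rbp4, all chosen after their values were seen, transthyretin (Ttr) and Alb varied widely between cultured arrays, and Apob and Hnf4a did not. Ttr, which encodes the protein that travels with RBP4 in blood, read 4.99, 3.23, 1.85 and -4.38 in undifferentiated progenitors and 6.45, 4.32, 6.13 and 1.97 in the hepatocyte condition. In the cholangiocyte condition Ttr read 2.13, 0.28 and -0.62, and in primary hepatocytes 8.82 to 9.34. Alb, the main plasma protein, read 6.00, 1.26, -4.44 and -8.74 in undifferentiated progenitors, the last not well above background. Across the 4 undifferentiated arrays the SD was 0.64 for Rbp4, 4.08 for Ttr and 6.45 for Alb, against 0.33 for Apob and 0.34 for Hnf4a.
Apob, the structural protein of low-density lipoprotein, was the gene whose pattern was most like that of Rbp4 over the 17 arrays (Pearson r = 0.987). It read 3.46 to 5.03 on the 11 cultured arrays, 6.58 to 7.39 in primary hepatocytes and -4.40 and -5.46 in primary cholangiocytes. Hnf4a, a hepatocyte transcription factor, read 4.47 to 5.95 on the cultured arrays. Of the 10 hepatocyte markers listed, 9 passed the limma test as lower in the hepatocyte condition than in primary hepatocytes and 0 as higher (median -7.27). In undifferentiated cells the SD was 5.55 for Apoa1, 4.88 for Fabp1 and 4.25 for Serpina1a. It was 1.71 for Cps1, 1.21 for Ass1, 0.41 for Cyp3a11 and 0.49 for Tat, the last 2 with low means (-5.53 and -4.58).

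**Figure D2:**
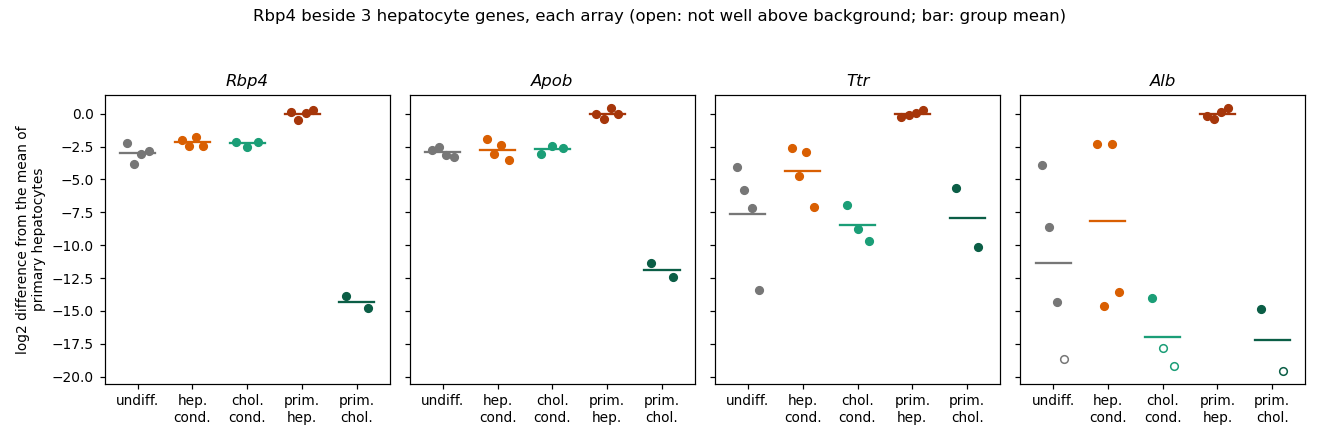
Rbp4 beside Apob, Ttr and Alb on each of the 17 arrays, as the log2 difference from that gene's mean in primary hepatocytes (vertical axis, shared), with group means as bars and open symbols where the gene was not well above background. Within the undifferentiated group the SD is 0.64 for Rbp4, 0.33 for Apob and 6.45 for Alb.

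Lrat, which esterifies retinol for storage, was detected on every array of primary hepatocytes and almost nowhere else. Primary hepatocytes read -4.31, -3.70, -3.62 and -3.44. Of the other 13 arrays, those well above background were the first undifferentiated array (-6.19) and the second of the hepatocyte condition (-6.88). The remaining undifferentiated arrays read -9.99, -9.02 and -9.62, the remaining hepatocyte-condition arrays -8.62, -8.30 and -8.96, the cholangiocyte condition -9.56, -9.52 and -9.63, and primary cholangiocytes -9.57 and -9.94. No array of the other groups reached the primary hepatocytes.
Lrat in primary hepatocytes was at least 13.4-fold above primary cholangiocytes, the bound being set by the lowest signal well above background on those 2 arrays; with normexp correction the difference was 2.27 (4.83-fold), under that bound. Against primary hepatocytes the hepatocyte condition differed by -4.42 ± 0.66, with 1 of its 4 arrays measured, and by -1.61 with normexp correction.

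Stellate cells are the known store of LRAT in liver, so markers of the other liver cells are given beside it. Of 17 stellate markers listed, 15 were measured (Des and Hgf were not). Their summed level, in multiples of the array's 75th percentile, was 2.06 to 4.89 in primary hepatocytes. On the other arrays it was 15.7 to 40.7, most of it from Ecm1. In primary hepatocytes the highest mean was that of Dcn, a matrix proteoglycan (0.75, arrays -0.09 to 1.54), with Ecm1 at -0.23. Of the 15, Pdgfrb, Pdgfra and Gfap were not well above background on any of the 4 primary hepatocyte arrays. Col1a1 was on 1, Reln on 2, and Lhx2 and Col3a1 on 3. Hand2, Ngfr, Colec11, Ecm1, Cygb, Dcn, Col1a2 and Acta2 were on all 4. In the hepatocyte condition against primary hepatocytes 1 of the 15 passed the test as higher and 6 as lower. Those with higher scaled levels in primary hepatocytes included Colec11 (-2.77 to -1.46, against -5.62 to -5.27 in the hepatocyte condition), Cygb (-3.92 to -2.99 against -5.02 to -4.49) and Lhx2 (-5.79 to -4.88 against -7.72 to -6.85). Lhx2 was well above background on 1 of the 4 hepatocyte-condition arrays. The 75th percentile was lower in primary hepatocytes (mean 804, against 2032 in the hepatocyte condition), which raises the scaled level of a dim spot there. No difference is therefore read from Cygb or Lhx2.
Summed markers of other non-parenchymal cells were higher in primary hepatocytes. The 7 endothelial markers summed to 10.9 to 13.8 there and to at most 3.16 elsewhere, all 7 being lower in the hepatocyte condition, and the 9 leukocyte and Kupffer cell markers summed to 8.69 to 12.8 against at most 3.70, with 8 lower and 1 higher. The 1 higher was Ptprc (mean -3.51, against -4.88 in primary hepatocytes). Cd68 was not well above background on any primary hepatocyte array, and its mean was -1.76 in primary cholangiocytes. Kdr (mean 2.96) and Csf1r (mean 2.64) were the highest of their lists in primary hepatocytes, and both were well above background on every array. Stab2, an endothelial scavenger receptor, read 0.48 to 1.14 and Clec4f, a Kupffer cell lectin, -2.97 to -1.62 in primary hepatocytes. The part of these cells in the Lrat level was not tested.

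Stra6, the RBP4 receptor, was highest in the cholangiocyte condition and lowest in primary hepatocytes. It read 1.60, 2.13 and 1.27 in the cholangiocyte condition, with an SD of 0.43 (n = 3). The undifferentiated arrays read -2.87, 1.83, -1.47 and -2.33, and the hepatocyte condition 1.02, -4.35, -2.07 and -3.92. Primary cholangiocytes read -2.01 and -4.07 and primary hepatocytes -6.24, -7.81, -4.44 and -7.78, of which the second and the last were not well above background. In each of the undifferentiated and hepatocyte-condition groups 1 array stood near the cholangiocyte condition and the other 3 were lower by over 2 log2 units.
The cholangiocyte condition lay above every array of the hepatocyte condition (the hepatocyte condition minus it was -4.001 ± 1.32) and of primary cholangiocytes (4.71 ± 1.58 higher), and overlapped the undifferentiated arrays (2.88 ± 1.32). The hepatocyte condition was 4.24 ± 1.23 above primary hepatocytes without overlap, or 1.44 with normexp correction and 3.12 without its first array. Primary hepatocytes minus primary cholangiocytes was -3.53 ± 1.501, and -0.73 with normexp correction.

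Aldh1a1, a cytosolic retinaldehyde dehydrogenase abundant in liver, was highest in primary hepatocytes and lowest in primary cholangiocytes, with all cultured cells between. Primary hepatocytes read 7.85, 8.18, 8.17 and 8.57 and primary cholangiocytes 2.11 and 2.33. The undifferentiated arrays read 5.50, 5.34, 5.11 and 5.36, the hepatocyte condition 5.07, 4.12, 3.53 and 3.96, and the cholangiocyte condition 5.01, 4.27 and 5.35. The mean of neither condition was nearer to primary hepatocytes than that of the undifferentiated cells.
The hepatocyte condition was below the undifferentiated arrays without overlap (-1.16 ± 0.30) and 16.2-fold below primary hepatocytes (-4.02 ± 0.30; -3.21 under quantile normalization). The cholangiocyte condition was 2.66 ± 0.39 above primary cholangiocytes. Primary hepatocytes were 5.97 ± 0.37 above primary cholangiocytes.

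Aldh1a3, another retinaldehyde dehydrogenase, ran the other way. Primary hepatocytes were not well above background on any array (-8.76, -8.08, -8.40 and -7.80). Undifferentiated progenitors read -5.47, -7.28, -5.72 and -6.81, the hepatocyte condition -5.30, -2.85, -4.09 and -2.19 and the cholangiocyte condition -4.99, -4.86 and -5.77. Primary cholangiocytes read 0.39 on array 3 and -4.52 on array 4. All 4 arrays of the hepatocyte condition lay above all 4 undifferentiated arrays, by 2.72 ± 0.87, or by 1.24 with normexp correction.
The hepatocyte condition was at least 5.50-fold above primary hepatocytes, and primary hepatocytes were at least 16.0-fold below primary cholangiocytes. With normexp correction both were under these bounds, at 0.62 (1.54-fold) and -1.91 (3.75-fold). The second bound was 2.92-fold without array 3 and 87.5-fold without array 4 of primary cholangiocytes. The cholangiocyte condition was below primary cholangiocytes by a log2 difference of -3.14 ± 1.13, which was -0.68 without array 3 and -5.59 without array 4 of primary cholangiocytes.

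Aldh1a2, the embryonic retinaldehyde dehydrogenase that is also made by mesothelium, overlapped between groups in all 6 comparisons. The undifferentiated arrays read -6.90, -6.53, -4.44 and -2.57, the hepatocyte condition -1.98, -1.33, -5.03 and -3.70 and the cholangiocyte condition -6.30, -6.18 and -3.98. Primary hepatocytes read -5.06, -4.29, -5.81 and -4.81 and primary cholangiocytes -4.88 and 0.84. The SD within groups was 0.64 in primary hepatocytes, 1.30 in the cholangiocyte condition, 1.68 in the hepatocyte condition and 2.01 in undifferentiated cells, and the group means lay between -5.49 and -2.02. The cholangiocyte condition minus primary cholangiocytes was -3.47 ± 1.58, and -0.61 without array 4 of the primary cells.
Of the 10 markers listed for mesothelium and portal fibroblasts, Msln, a mesothelial surface protein, read 6.03 to 7.51 on all 11 cultured arrays and 7.39 and 7.46 in primary cholangiocytes, and was not well above background in primary hepatocytes. Wt1, a mesothelial transcription factor, read -6.21, -5.83, 1.17 and -0.99 in undifferentiated cells, -1.01, 1.42, -0.36 and 0.83 in the hepatocyte condition and -5.75, -5.95 and -0.26 in the cholangiocyte condition. The 2 undifferentiated arrays with the higher Wt1 also had the higher Aldh1a2, and so had the third array of the cholangiocyte condition. Not so the hepatocyte condition, whose first array had its lowest Wt1 and its second-highest Aldh1a2. In primary cholangiocytes Wt1 was low on both arrays (-7.08 and -5.78, in order of level), while Aldh1a2 on array 4 (0.84) was the highest of all arrays. The summed level of the 10 was 82.5 to 213 on the cultured arrays, 177 and 180 in primary cholangiocytes and at most 1.53 in primary hepatocytes, with Msln giving 79.3% to 98.9% of it on the cultured arrays. Without Msln the sum was 1.82 to 30.3 on the cultured arrays, 3.17 and 8.82 in primary cholangiocytes and 1.32 to 1.51 in primary hepatocytes. Gpm6a and Lrrn4 were well above background on 2 of the 11 cultured arrays each. Upk1b and Upk3b had lower means in the hepatocyte condition (-3.10 and -7.18) than in undifferentiated cells (0.15 and -4.20). These markers' part in the Aldh1a2 level was not tested.

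Crabp1 and Crabp2, the cytoplasmic binding proteins of retinoic acid, overlapped between groups in all 6 comparisons. Crabp1 was well above background on 8 of the 17 arrays and on none of the cholangiocyte condition. Its levels were -7.88 to -3.53 in undifferentiated cells, -9.60 to -5.56 in the hepatocyte condition, -8.996 to -7.54 in the cholangiocyte condition, -6.88 to -4.08 in primary hepatocytes and -7.92 and -4.90 in primary cholangiocytes. The cholangiocyte condition thus lay below every array of primary hepatocytes, a pair outside the 6 comparisons. Before scaling, its spots read 9.40, 3.59 and 7.05 intensity units. Primary hepatocyte arrays 3 and 4, also not well above background, read 6.70 and 8.59. The unscaled signals overlapped, so no difference is read from this pair.
Crabp2 was well above background on all 17 arrays. Its spot was non-uniform on the fourth array of the hepatocyte condition, so the probe was left out of the fit and that array out of the values here. It read -0.43, -0.50, 0.34 and -2.14 in undifferentiated cells, -1.26, -0.17 and 0.51 in the hepatocyte condition, and -0.66, -0.95 and -2.14 in the cholangiocyte condition. Primary hepatocytes read 0.02, -0.12, -1.32 and -0.65 and primary cholangiocytes -1.23 and 1.54.

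Rarb, the retinoic acid receptor whose promoter is printed above, was highest in the hepatocyte condition and varied little within groups. The hepatocyte condition read -0.47, -0.44, -0.87 and -0.73. The undifferentiated arrays read -1.65, -1.11, -1.31 and -1.88, the cholangiocyte condition -2.36, -2.21 and -1.76, primary hepatocytes -1.83, -0.87, -1.41 and -1.44, and primary cholangiocytes -2.35 and -2.18. Its 4 arrays in the hepatocyte condition lay above every array of each other group, the closest being the second array of primary hepatocytes (-0.869 against -0.874).
The hepatocyte condition was 1.82-fold above the undifferentiated arrays (0.86 ± 0.23), 1.69-fold above primary hepatocytes (0.76 ± 0.23) and 2.79-fold above the cholangiocyte condition (1.48 ± 0.24). Primary hepatocytes were 0.88 ± 0.28 above primary cholangiocytes without overlap, and the cholangiocyte condition differed from primary cholangiocytes by 0.16 ± 0.29. The second Rarb probe, a dimmer one, gave the same order in these non-overlapping pairs: the hepatocyte condition was 0.62 above undifferentiated cells, 0.33 above primary hepatocytes and 1.06 above the cholangiocyte condition.

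In order of group means, Rbp4 and Aldh1a1 both ran from primary hepatocytes down to primary cholangiocytes, with the top and bottom groups clear of their neighbours and the 3 cultured groups overlapping their neighbours in the order. Lrat stood apart in its top group, primary hepatocytes, and Aldh1a3 and Stra6 in their bottom group, again primary hepatocytes. Rarb stood apart in its top group, the hepatocyte condition. No pair of neighbouring groups was free of overlap for Aldh1a2, Crabp1 or Crabp2.

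**Figure D3:**
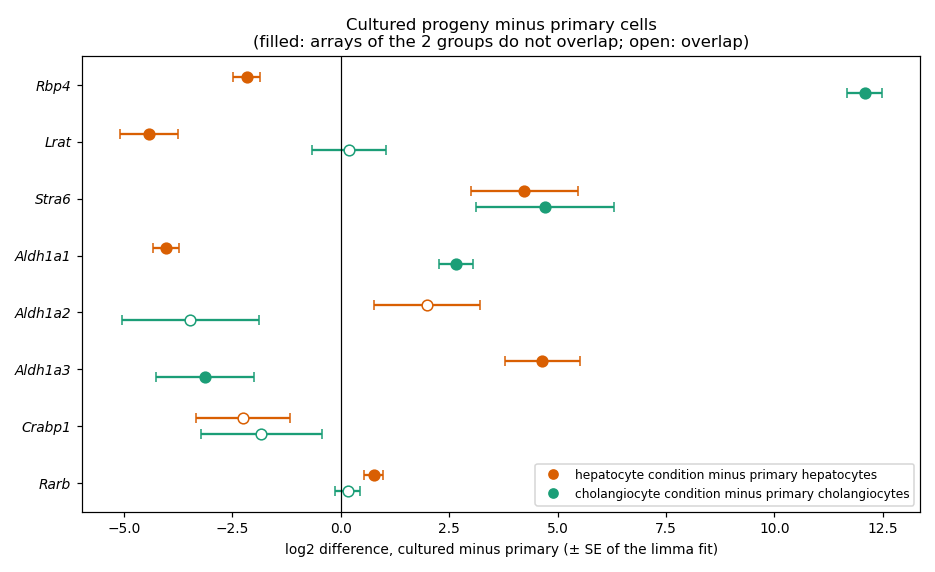
Log2 difference (horizontal axis, ± SE of the limma fit) between cells differentiated in culture and primary cells of the same name, for the 8 genes in the fit; filled symbols mark groups that do not overlap. Rbp4 and Aldh1a1 lie below primary hepatocytes and above primary cholangiocytes, and Aldh1a3 the other way round.

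Counts of non-overlap over the 8 genes in the fit follow from levels that were known when the genes were chosen, and nothing is read from them. In the hepatocyte condition against undifferentiated cells 2 were higher (Aldh1a3 and Rarb) and 1 lower (Aldh1a1), where 9.57% and 11.4% of all 25975 genes were. In the cholangiocyte condition against undifferentiated cells none was higher or lower, where 8.75% and 4.58% were. In the hepatocyte condition against primary hepatocytes 3 were higher and 3 lower (25.5% and 30.8%). In the cholangiocyte condition against primary cholangiocytes 3 were higher and 1 lower (25.9% and 16%). Between the conditions, 2 were higher and 1 lower in the hepatocyte condition (11% and 16.9%). Between primary cells, 4 were higher and 2 lower in hepatocytes (34.8% and 25.5%).
The arrays lay on 5 slides scanned on 1 day. Within each of the 3 slides that held both the hepatocyte condition and primary hepatocytes, 8 of 8 genes had the sign of the whole comparison. Within slides this held for 6 to 8 genes in the hepatocyte condition against undifferentiated cells, for 4 and 7 in the cholangiocyte condition against them, for 7 on the 1 slide with both kinds of cholangiocyte, for 5 to 8 between the conditions and for 7 and 8 between primary cells.

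The rest of the pathway was read from 48 other genes, listed by role, of which 47 were measured (Hoxb1 was not). These were tested by limma over all 25975 genes, with Benjamini-Hochberg adjusted p under 0.05 as the threshold.
In the hepatocyte condition against primary hepatocytes 12 of 47 rose and 26 fell (26% and 33.7% of all genes), with a median log2 difference of -1.21 against -0.33 over all genes. Of the 18 enzymes of retinol and retinaldehyde, 14 fell and 2 rose. The falls named by the rule were Ces1d, a carboxylesterase that can act on retinyl ester (-13.95 ± 0.55, adjusted p = 7.1e-11), the alcohol dehydrogenase Adh4 (-11.75 ± 1.04, adjusted p = 3.2e-07), Rarres2, which encodes chemerin (-11.66 ± 0.83, adjusted p = 3.34e-08), and the retinol dehydrogenase Rdh16 (-10.73 ± 0.50, adjusted p = 4.17e-10). In the hepatocyte condition Ces1d was well above background on 1 of 4 arrays, Adh4 and Rdh16 on 2 and Rarres2 on 3, so these sizes rest in part on spots not well above background and their order is not read. With normexp correction they were -10.21, -9.08, -7.06 and -10.11 for Ces1d, Adh4, Rdh16 and Rarres2. Among the rises were the cellular retinol carrier Rbp2 (4.79 ± 1.02), the homeobox gene Hoxb4 (4.48 ± 0.85) and the receptor Rarg (3.90 ± 0.29, adjusted p = 5.16e-08). Rbp2 and Hoxb4 were each well above background on 1 of 4 arrays of primary hepatocytes. With normexp correction Rbp2 no longer passed (1.26, adjusted p = 0.0655) and Hoxb4 was 1.54 (adjusted p = 0.0285). The receptors Rara (0.50 ± 0.30) and Rxrb (-0.46 ± 0.20) did not pass. Rara passed under quantile normalization (0.80, adjusted p = 0.0373) and Rxrb without the fourth array of the hepatocyte condition (-0.61, adjusted p = 0.0136).
Rarg separated primary hepatocytes (-2.75 to -1.26) from every other array (1.09 to 2.54). Cyp26a1, whose promoter is printed above, read 0.24, 0.92, 0.33 and -0.21 in primary hepatocytes and between -9.12 and -4.65 on all other arrays. The hepatocyte condition minus primary hepatocytes was -6.65 ± 0.62 (log2; adjusted p = 5.66e-07), with 3 of 4 arrays measured; it and Ttr (adjusted p = 0.0369 for a log2 difference of -4.34 ± 1.67) were named after their values were seen.

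Between primary cells, 25 of the 47 genes were higher in hepatocytes and 5 lower than in cholangiocytes (28% and 21.6% of all genes), with a median of 1.25 against 0.35. Of the 18 enzymes 13 were higher. Named by the rule were the retinol dehydrogenase Rdh7, at least 38517-fold higher, the alcohol dehydrogenases Adh1 (14.30 ± 2.64) and Adh4 (13.18 ± 1.27), and Ces1d (13.95 ± 0.67). Adh1, Adh4 and Ces1d were each well above background on 1 of the 2 primary cholangiocyte arrays, so their order is not read. Adh1 read -2.03 and -9.77 on those arrays, and its difference ran from 10.43 to 18.17 over the settings. With normexp correction the differences were 12.32 (5116-fold, under the bound) for Rdh7, 11.34 for Adh1, 10.06 for Adh4 and 10.65 for Ces1d. The cellular retinol carrier Rbp7 was at least 47.6-fold lower in hepatocytes, a bound that was 24.2-fold without cholangiocyte array 3 and 93.6-fold without array 4, and its difference was -3.001 (8.01-fold) with normexp correction. Rarg (-4.47 ± 0.35), Rbp2 (-3.38 ± 1.25, adjusted p = 0.0376) and Rdh10, the retinol dehydrogenase that supplies retinaldehyde in the embryo (-3.17 ± 0.45), were lower too. Rbp2 was well above background on 1 hepatocyte array. It did not pass with normexp correction (-0.71, adjusted p = 0.386), or without hepatocyte array 3 (adjusted p = 0.0754) or 4 (0.0701) or without cholangiocyte array 3 (-0.38, adjusted p = 0.798). Tgm2, tissue transglutaminase and a retinoic acid responsive gene (0.52 ± 0.36), and Fabp5, a fatty acid carrier that also binds retinoic acid (0.94 ± 0.72), did not pass; Tgm2 passed without cholangiocyte array 3 (1.23, adjusted p = 0.0141).

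In the hepatocyte condition against undifferentiated cells 8 of the 47 rose and 1 fell (7.62% and 7.7% of all genes), with a median of 0.73 against 0.07; 16 passed without the fourth array of the hepatocyte condition. Within the 3 slides that held both groups the median was 0.06, -0.01 and 1.23. Tgm2 rose from 4.63, 4.61, 4.08 and 3.998 to 6.19, 6.61, 5.91 and 6.57 (1.99 ± 0.29, adjusted p = 0.00057), with no overlap. Lipoprotein lipase (Lpl) rose by 5.78 ± 1.40 (adjusted p = 0.0125). The retinoic acid responsive gene Rarres1 rose at least 7.07-fold (adjusted p = 0.00759), above background on 3 of 4 arrays against 0 of 4; the bound was 3.86-fold without array 3 and 12.5-fold without array 1 of the hepatocyte condition, and its log2 difference was 1.11 with normexp correction (adjusted p = 0.0602).
Cyp26b1, which breaks down retinoic acid, rose from -1.84, -1.91, -2.53 and -0.72 to 0.31, 0.63, 1.96 and 0.69 (2.65 ± 0.71, adjusted p = 0.0212). It did not pass without undifferentiated array 2 (adjusted p = 0.0512) or 3 (0.0627) or array 3 of the hepatocyte condition (0.067). Dgat1, an acyltransferase that can also esterify retinol, fell by 0.57 ± 0.14 (adjusted p = 0.0121). The retinaldehyde reductase Dhrs3 (0.28 ± 0.53) and Fabp5 (-1.09 ± 0.59) did not pass. Of the 15 stellate markers 4 passed as higher in the same comparison, Dcn, a matrix proteoglycan, reading -6.25 to -5.09 in undifferentiated cells and -2.68 to 0.89 in the hepatocyte condition; their part in these rises was not tested.

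In the cholangiocyte condition against undifferentiated cells 1 of the 47 genes rose and 0 fell by limma (0.785% and 0.597% of all genes), the median being 0.03 against 0.14. Over all genes 359 passed, 222 with the replicate number as a block, and 128 without the second array of the cholangiocyte condition; 3324 had an unadjusted p under 0.05. The gene that rose was Rdh10, from 1.07, 1.93, 0.78 and 2.04 to 3.90, 4.66 and 3.99 (2.73 ± 0.40, adjusted p = 0.00412). Fitted on these 2 groups alone its adjusted p was 0.0532. Dhrs3 (0.71 ± 0.57) and Tgm2 (-0.18 ± 0.32) did not pass.

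Between the conditions 9 of the 47 genes were higher and 3 lower in the hepatocyte condition (6.97% and 8.42% of all genes), with a median of 0.66 against -0.13. The count of 12 was 7 without the first array of the hepatocyte condition, and 6 and 4 without the second and the third of the cholangiocyte condition. Rdh10 was lower (-2.25 ± 0.40, adjusted p = 0.00195). Dgat1 was lower too (-0.60 ± 0.15, adjusted p = 0.014; 0.0614 and 0.062 without cholangiocyte-condition arrays 2 and 3). Lpl was higher (6.30 ± 1.52, adjusted p = 0.012; 0.058 and 0.0622 without the same arrays), and Rarres1 at least 6.03-fold higher (adjusted p = 0.00814; 0.249 with normexp correction, and bounds of 3.29-fold and 10.6-fold without hepatocyte-condition arrays 3 and 1).
Rdh7 (6.62 ± 1.91, adjusted p = 0.0312), well above background on 1 of the 3 arrays of the cholangiocyte condition, did not pass with normexp correction (adjusted p = 0.0649) or without array 1 or 3 of the hepatocyte condition or any 1 of the cholangiocyte condition (adjusted p from 0.0611 to 0.104). Cyp26b1 (2.44 ± 0.77, adjusted p = 0.0456) did not pass without any 1 of the 4 arrays of the hepatocyte condition or array 1 or 3 of the cholangiocyte condition (0.0549 to 0.179). Nrip1, a nuclear receptor corepressor (-0.93 ± 0.29, adjusted p = 0.0419), did not pass with normexp correction (0.0531) or without array 2, 3 or 4 of the hepatocyte condition or any 1 of the cholangiocyte condition (0.0572 to 0.126). Dhrs3 (-0.43 ± 0.57) and Fabp5 (0.18 ± 0.63) did not pass.

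In the cholangiocyte condition against primary cholangiocytes 3 of the 47 rose and 5 fell (11.9% and 7.64% of all genes), with a median of -0.17 against 0.17. Without the second array of the cholangiocyte condition 3 passed in all. Hoxb4 was at least 97.4-fold higher (adjusted p = 0.000276), reading -1.30, 0.78 and -2.20 against 2 arrays not well above background. That bound was 54.3-fold without array 2 and 153-fold without array 3 of the cholangiocyte condition, and the difference with normexp correction was 4.11 (17.3-fold, adjusted p = 0.00149). Rbp7 (-7.26 ± 0.72, adjusted p = 1.36e-05) and Stra6l, a relative of STRA6 that takes up retinol in liver (-6.27 ± 0.81, adjusted p = 0.000125), were lower. Rbp7 was well above background on 1 of the 3 arrays of the condition, and with normexp correction its difference was -3.65 (adjusted p = 7.6e-06). Stra6l read -5.38, -2.97 and -4.79 against 2.60 and 1.16, and 4.06 to 4.37 in primary hepatocytes.
The other named calls each rested on single arrays. Rara (1.32 ± 0.38, adjusted p = 0.0261) did not pass without array 2 or 3 of the cholangiocyte condition or array 4 of the primary cells (0.076 to 0.292). Rxra (1.11 ± 0.34, adjusted p = 0.0349), the main liver RXR, did not pass without array 1 or 2 of the condition or either primary array (0.0584 to 0.124), and was -0.06 with normexp correction. Lpl (-5.49 ± 1.81, adjusted p = 0.0473) did not pass without array 2 or 3 of the condition or either primary array (0.104 to 0.203). The alcohol dehydrogenase Adh7, at least 10.7-fold lower (adjusted p = 0.0481; 1.996-fold and 57.5-fold without primary arrays 3 and 4), did not pass with normexp correction (adjusted p = 0.0663) or without any 1 of the 3 arrays of the condition or primary array 3 (0.074 to 0.494). Dhrs3 (1.09 ± 0.68) and Tgm2 (0.78 ± 0.38) did not pass; Tgm2 passed without primary array 3 (1.49, adjusted p = 0.0176).

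**Figure D4:**
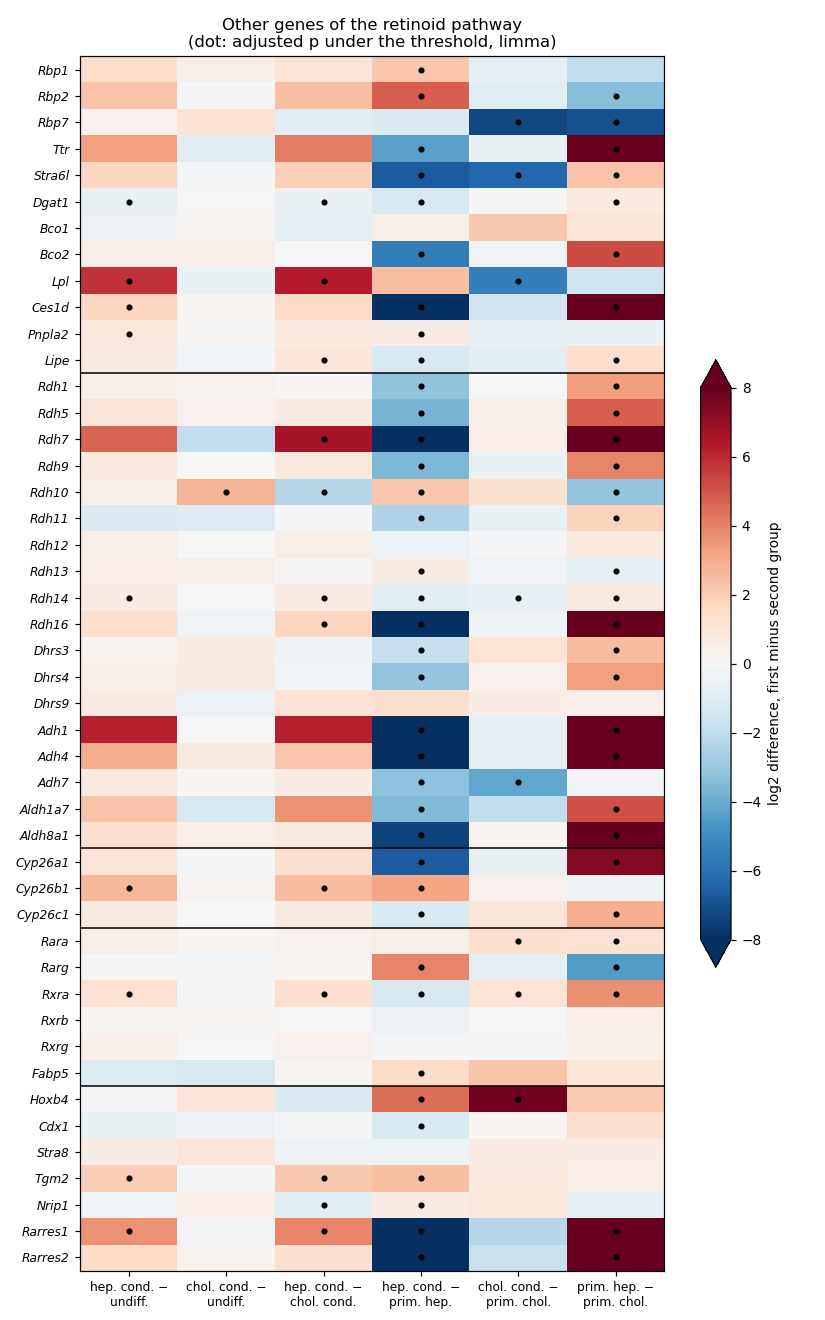
Log2 difference (colour) of 46 of the other retinoid genes (rows, grouped by role between lines) in the 6 comparisons (columns); a dot marks an adjusted p under 0.05 by limma. Dots are densest in the hepatocyte condition against primary hepatocytes (37 of 46) and sparsest in the cholangiocyte condition against undifferentiated cells (1 of 46).

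Likeness of pattern was read over the 17 arrays as Pearson's r against 17540 named genes, as a description, since arrays of a group share their condition. After Apob, Rbp4 was most like Anks4b (0.956) and Peli2 (0.953). Aldh1a1 was most like the transporter gene Abcg2 (0.969), Lrpprc (0.965) and Gamt (0.964), and Lrat like the sterol isomerase gene Ebp (0.965), Hadhb (0.962) and Vmn2r-ps54 (0.956). Lrat was well above background on 6 of the 17 arrays and Vmn2r-ps54 on 4, so the r values of Lrat rest in part on spots not well above background. Stra6 was most like Prl2c5 (0.935), Agfg1 (0.896) and Aspm (0.892), Aldh1a3 like Fam83h (0.944), Inpp5k (0.943) and Mfap1a (0.931), and Rarb like Cyp4b1 (0.926), Tango2 (0.892) and Tgtp2 (0.878). Aldh1a2 and Crabp1 reached at most 0.822 (Lce1e) and 0.789 (Nptx2). Lce1e was well above background on 5 of the 17 arrays and Nptx2 on 3.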

How the data were processed

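RNA of 17 samples in 5 groups was amplified and labelled with Cy3, per the labels' protocols, and hybridised to one-colour arrays. The deposited intensity values are background-subtracted spot signals of Agilent Feature Extraction, version 10.5.1.1 per the file headers and 9.53 per the submitters' processing notes. The authors' deposited table gives signed fold changes, here treated as a score, and false discovery rates in percent; how they were computed is not given in the sources used here. From the intensities, log2 values minus each array's 75th percentile were computed. Control spots and 135 probes with a non-uniform spot on any array were left out, and no spot was saturated. Probes were named by accession (26412), symbol (3854) or older symbol (735), and 8428 kept the file's name. A gene stood by its brightest probe on average, and counted as well above background where any of its probes past the filter did. limma 3.58.1 in R 4.3.3 fitted 5 group means to all 17 arrays and 25975 genes, checked on simulated data. The number of arrays limits the precision. "At least" folds set the bright group's mean over its replicates against the lowest signal well above background on each array of the dim group, or the dim probe's own signal if higher; they hold for this scaling only.

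The genes, the 48 other pathway genes and the marker lists were chosen with earlier results of these data known. Named in each comparison are the 9 genes, up to 4 of the 48 per direction with the largest difference past the threshold and up to 2 with the highest mean among those that did not pass; exceptions are stated, and 1 gene is not reported here, though the counts include it. Likeness names 3 genes a member. Same-numbered arrays deviated together from their group means for the cholangiocyte condition and undifferentiated cells (r = 0.385, 0.281 and 0.318 for the 3 numbers). In no other comparison did every pair exceed 0.1, though array 4 of the hepatocyte condition and of undifferentiated cells reached 0.519. Differently numbered arrays were not compared, so whether the numbers pair samples was not tested. Alternatives were normexp correction with offset 50, quantile and median scaling, a stricter filter, the mean of a gene's probes, replicate and slide blocks, only the groups compared and leaving out each array; keeping the flagged Crabp2 spot was added after seeing the data.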

Additional observations from a re-analysis of the deposited data

Results flagged for a closer look

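For 3 of the retinoid genes, every array of a differentiation condition lay on 1 side of the primary cells in the hepatocyte comparison and on the other side in the cholangiocyte comparison; the difference between the comparisons was not tested. Rbp4 was -2.16 (log2) against primary hepatocytes and 12.08 against primary cholangiocytes. Aldh1a1 was -4.02 and 2.66. Aldh1a3 was 4.65, with the primary hepatocytes not well above background, and -3.14.

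Among 99 groups of 4 arrays, 2 held an array far from the others, where chance gives about 1 in 20. Cyp26b1 read -1.14 on the third array of primary hepatocytes, against -2.79 to -2.52 on the others. Fabp5 read 7.05 on the first undifferentiated array, against 5.18 to 5.23 on the others.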

How the results depend on the processing

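Outside the settings that leave out an array, the differences of the 8 genes in the fit stayed within the spread of replicates in 358 cases. They moved beyond it in 19 and reversed in 1. The spread was the larger SD of the 2 groups. Dropping 1 array cannot shift a group mean by that much, so none of 328 left it, and nothing is read from this. Aldh1a2 in the cholangiocyte condition against primary cholangiocytes ran from -0.61 without primary array 4 to -6.33 without primary array 3. Lrat in the hepatocyte condition against the cholangiocyte condition turned from 1.38 to -0.17 with normexp correction, neither group being measured on most arrays. Rxra in the cholangiocyte condition against primary cholangiocytes turned from 1.11 to -0.056 with it (adjusted p = 0.873 by limma), its adjusted p ranging from 0.00834 to 0.873 over all settings; the cause of these was not tested. Crabp1 failed the stricter filter and has no value there. Keeping the fourth hepatocyte-condition array moved Crabp2 against undifferentiated cells from 0.38 to 0.28. Of the 46 member differences with a fold in the authors' deposited table, 44 had the same sign there, and the 2 others were Lrat at -1.19 (hepatocyte condition against undifferentiated cells) and -1.001 (between cholangiocytes).

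For the 48 other genes, between the conditions 12 passed, 7 with median centring and 6 with the compared groups alone. Against primary cholangiocytes 8 passed in the cholangiocyte condition, 5 with a replicate block, 4 with a slide block and 3 with the compared groups alone; against undifferentiated cells 1 passed, and 0 with the compared groups alone. Over all genes, the cholangiocyte condition against undifferentiated cells gave 359 calls, 222 with a replicate block and 181 with a slide block. It gave 104 with the compared groups alone, where fewer arrays set the spread. Against primary cholangiocytes the cholangiocyte condition gave 5087, and 1072 with the compared groups alone. The replicate block moved no other count by over 1.5 times. Whether the replicate numbers pair samples in any comparison was not tested.

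Leaving out 1 array at a time, the hepatocyte condition gave 3101 to 3547 genes and 6 to 16 of the 48 against undifferentiated cells, and 14021 to 15311 and 31 to 37 against primary hepatocytes. The cholangiocyte condition gave 128 to 401 and 1 to 1 against undifferentiated cells (128, 188, 177, 228 and 179 without cholangiocyte-condition array 2, undifferentiated arrays 2 and 3 and cholangiocyte-condition arrays 1 and 3), and 3665 to 4476 and 3 to 7 against primary cholangiocytes. Between the conditions it gave 2641 to 3514 and 4 to 12, the lowest without cholangiocyte-condition arrays 1 (2641) and 2 (2646), and between primary cells 10673 to 12876 and 27 to 31.

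Scaling moved the share of calls that were higher. Against primary hepatocytes it was 43.5% in the hepatocyte condition and 27.8% with normexp correction; for the cholangiocyte condition against primary cholangiocytes 61.0% and 74.8%; between primary cells 56.4%, and 74.9% with normexp correction. Against undifferentiated cells it was 49.7% and 28.7% (median centring) for the hepatocyte condition, and 56.8%, 43.3% (quantile) and 37.3% (median centring) for the cholangiocyte condition. The median of all genes between primary cells was 0.35, 0.87 with normexp correction, 0.00075 with quantile normalization and 0.15 with median centring; in the hepatocyte condition against primary hepatocytes it was -0.33, -0.68, -0.0092 and -0.15, and against undifferentiated cells 0.07, and -0.18 with median centring. Signal over background limits Lrat, Crabp1 and Aldh1a3 most.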
